A study of Rattus norvegicus with 6 samples.

Results

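The genes described here are 46 targets of the tumour suppressor p53 and genes of DNA repair, chosen by name. A probe was counted as a member where its transcript accession maps to a listed symbol in the rat RefSeq gene table. Of the 46 genes, 40 had a named probe and 37 were measured above background and tested, out of 11965 genes tested on the arrays. The tissue was renal cortex from male rats of the Sprague-Dawley stock Crl:CD(SD), bought at an age of 5 weeks. For 4 weeks 3 animals were dosed daily with 1000 mg per kg of NTA, the trisodium monohydrate salt of nitrilotriacetic acid, and the other 3 were given water. NTA is a metal-chelating aminopolycarboxylate and a carcinogen of the rodent kidney. Both groups were fed the same basal diet, and 1 array was run per animal.

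The protein p53 is held low by the ubiquitin ligase MDM2 and accumulates when damage kinases modify it. It then raises transcription of genes that stop the cell cycle, promote repair or start apoptosis, and it raises Mdm2 itself, which closes a feedback loop. Because p53 is controlled mainly as a protein, the RNA of its targets is a common readout of its activity, and in the renal tubule Cdkn1a and Gdf15 are well-known responders to injury. DNA repair enzymes divide the work by lesion: base excision removes oxidized and deaminated bases, nucleotide excision removes bulky adducts, homologous recombination and end joining mend double-strand breaks, and MGMT takes alkyl groups off guanine.

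Expression is given throughout as log2 signal relative to the array's 75th percentile, and a difference is NTA minus water on that log2 scale. The 75th percentile lay between 1132.6 and 1316.4 intensity units and 68.4% to 73.5% of probes were well above background on an array. All 5 proximal tubule markers on the list used (Slc34a1, Lrp2, Slc5a2, Aqp1 and Cubn) were well above background on every array. Water 1 and NTA 2 shared a slide and a scan day. On the other scan day, water 2 and 3 lay on a second slide and NTA 1 and 3 on a slide of their own, so within that day slide and group cannot be told apart. Only the shared slide compares the groups within a slide, with 1 animal each. In whole cortex, fewer cells of a type and less RNA per cell cannot be told apart.

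No member passed limma's adjusted threshold of 0.05 in either direction (0 of 37, where 0.0752% of all genes were called). At an unadjusted p under 0.05 there were 5 members, Gdf15, Bbc3 and Xrcc6 with higher and Gadd45a and Apex1 with lower means in NTA, against 12.3% of all genes (7.76% higher and 4.51% lower). The smallest adjusted p was 0.233, for Gdf15. The median difference was 0.06 for the 21 p53 targets tested and 0.01 for the 16 repair genes, beside 0.02 for all genes. Of the 37 members, 27 differed by under 0.2 either way, as did 74.7% of all genes. Only Gdf15 differed by at least 1.5-fold (1 of 37, and 4.56% of all genes).

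**Figure D1:**
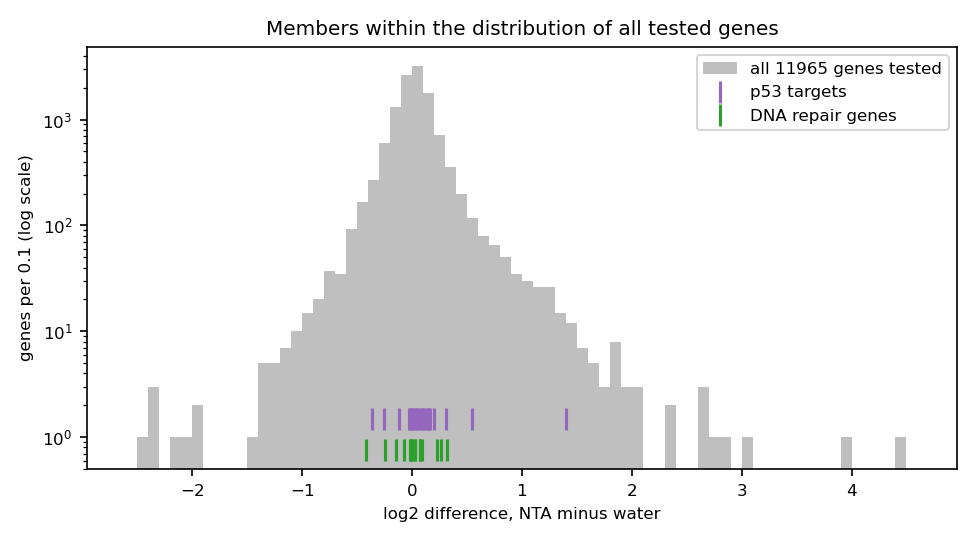
Number of genes (log axis) by log2 difference, NTA minus water, for the 11965 genes tested (grey bars), with 1 tick for each of the 21 p53 targets and 16 repair genes. The ticks lie near 0, between -0.42 for Rad51c and 0.55 for Plk3, with Gdf15 apart at 1.40.

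The unadjusted 95% interval of the difference from limma lay within 1.5-fold either way for 29 members (74.5% of all genes) and within 2-fold for 34 (90.7% of all genes). The 3 with wider limits were Gdf15, Plk3 and Rad51c. For Cdkn1a, Mdm2 and Bax the upper ends of the interval were 0.38, 0.31 and 0.24. The groups did not overlap for 10 members (20.2% of all genes), 7 higher and 3 lower in NTA, beside 13.0% and 7.25% of all genes. The 7 were Gdf15, Bbc3, Cdkn1a, Bax, Fancd2, Xrcc6 and Ercc2, and the 3 were Gadd45a, Apex1 and Neil1. These shares are near those of all genes.

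**Figure D2:**
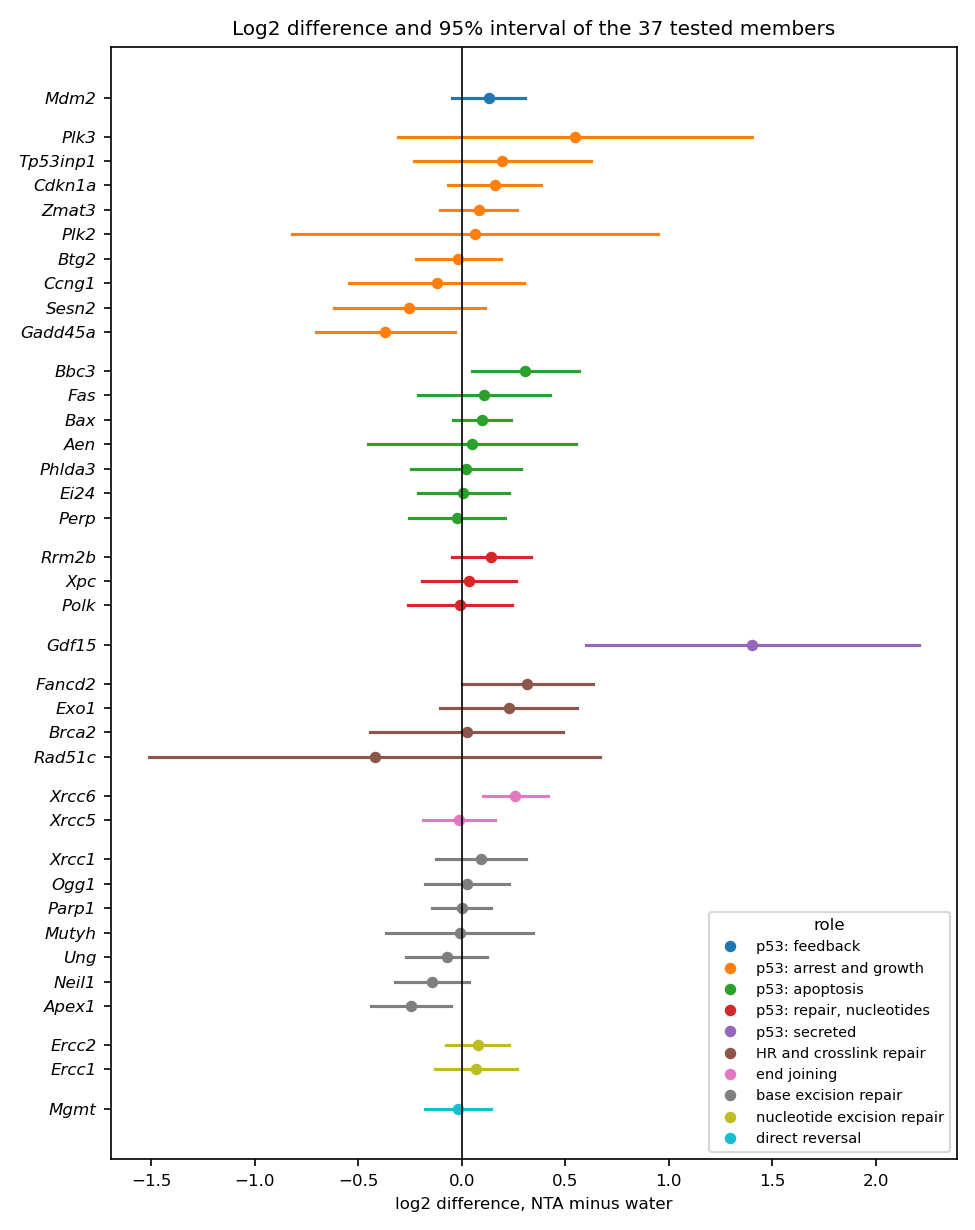
Log2 difference, NTA minus water (point), with its unadjusted 95% interval from limma (line), for the 37 tested members grouped by role. The intervals of Gdf15, Bbc3 and Xrcc6 lie above 0 and those of Gadd45a and Apex1 below it, and the widest belong to Rad51c, Plk2, Plk3 and Gdf15.

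Promoter sequences are shown for the members in which the best-known p53 motif, or the largest difference, could be placed. RefSeq promoters of build GRCr8, 250 bases before to 50 after a gene's start, were at hand for 37 of the 46 listed genes and 32 of the 37 tested. Both strands were searched for the p53 half-site consensus, and for the core of the antioxidant response element, TGACNNNGC, bound by NRF2. A p53 half-site was found in 7 of the 32 tested members with a promoter (21.9%), and in 7.35% of the promoters of all genes tested. The antioxidant core was found in 6 of the 32 (18.8%), and in 14.8% of all genes tested. A match here is a run of letters, and binding was not measured. In the upstream sequences of the first 3 genes below, capitals mark either motif, and the 2 motifs did not overlap.

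Gdf15, chr16:18838186-18838435, plus strand: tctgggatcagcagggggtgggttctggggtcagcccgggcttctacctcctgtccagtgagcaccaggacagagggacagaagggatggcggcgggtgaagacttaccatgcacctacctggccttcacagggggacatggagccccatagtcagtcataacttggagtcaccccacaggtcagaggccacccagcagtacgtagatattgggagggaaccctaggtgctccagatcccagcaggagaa
Cdkn1a, chr20:7150682-7150931, plus strand: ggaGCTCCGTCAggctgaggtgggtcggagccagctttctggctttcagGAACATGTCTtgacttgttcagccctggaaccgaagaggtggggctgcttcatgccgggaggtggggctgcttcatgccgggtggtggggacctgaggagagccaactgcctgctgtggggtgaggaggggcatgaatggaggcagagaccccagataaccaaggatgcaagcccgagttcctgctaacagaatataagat
Gadd45a, chr4:97486800-97487049, minus strand: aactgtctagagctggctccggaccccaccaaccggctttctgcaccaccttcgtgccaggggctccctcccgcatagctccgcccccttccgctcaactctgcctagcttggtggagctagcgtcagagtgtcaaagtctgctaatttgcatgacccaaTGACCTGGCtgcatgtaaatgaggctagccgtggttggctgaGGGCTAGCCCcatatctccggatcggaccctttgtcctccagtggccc

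Cdkn1a carried the half-site GAACATGTCT from base -201, counted back from its start, and Gadd45a the half-site GGGCTAGCCC from base -48. Gdf15 held neither motif in the window shown. Its second listed start, further along the gene, had 2 antioxidant cores on the opposite strand, at -85 and -2. The half-sites of the other 5 tested members are shown in capitals with up to 20 bases on either side. Sesn1, which was not tested, held one from base -172.

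Ccng1, chr10:25685079-25685126, minus strand: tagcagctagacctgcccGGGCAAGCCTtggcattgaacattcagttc
Aen, chr1:142224483-142224532, plus strand: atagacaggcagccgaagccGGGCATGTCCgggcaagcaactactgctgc
Ei24, chr8:44699421-44699470, minus strand: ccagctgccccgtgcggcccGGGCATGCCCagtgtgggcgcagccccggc
Mutyh, chr5:135510597-135510646, plus strand: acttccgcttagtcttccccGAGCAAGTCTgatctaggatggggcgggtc
Neil1, chr8:66452024-66452073, minus strand: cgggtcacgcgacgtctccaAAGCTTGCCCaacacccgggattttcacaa

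The differences of these 7 members ran from -0.37 for Gadd45a to 0.16 for Cdkn1a, and 0 of them passed.

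Among the p53 targets, Gdf15, which encodes a secreted stress cytokine, had the largest difference of any member. Its signal was -1.0, -1.24 and -0.28 in water and 0.28, 1.09 and 0.32 in NTA. Every NTA animal lay above every water animal, and NTA 2 was the highest. The difference was 1.40 ± 0.33 (SE), or 2.64-fold with a 95% interval of 1.52 to 4.61, and did not pass (limma adjusted p = 0.233, with 0.168 to 0.448 over the alternatives). It was 2.09 on the shared slide, 1.06 on the other scan day and 1.14 without NTA 2. The mean signal of 3 erythroid markers (Hbb, Hba-a1 and Alas2) was also highest in NTA 2, at 6.08 against 5.30 to 5.48 on the other arrays, and its part in the Gdf15 value was not tested. The second Gdf15 probe gave 1.27 ± 0.32, with the same order of the groups.

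Cdkn1a, which encodes the cyclin-dependent kinase inhibitor p21, was at 4.69, 4.83 and 4.78 in water and 4.85, 5.09 and 4.84 in NTA by its brightest probe. The groups did not overlap, with NTA 3 only just above water 2. The difference of 0.16 ± 0.09 (adjusted p = 0.536) was 0.40 on the shared slide and 0.04 on the other day, and 0.08 without NTA 2. The other 2 probes differed in sign from the first. One read 0.51, 1.79 and 1.81 in water and 0.64, 0.86 and 1.36 in NTA (-0.41 ± 0.40), so that water 1 and NTA 1 were lowest. The other, the dimmest, was well above background on 3 water and 2 NTA arrays and stood at -0.31 ± 0.38. Both overlapped between groups, and their errors were over 4 times that of the brightest probe. With the mean of the 3 probes, which takes in the dimmest one, kept through water alone, Cdkn1a stood at -0.19.

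Mdm2, the feedback inhibitor of p53, read 1.02, 1.03 and 0.99 in water and 1.02, 1.19 and 1.21 in NTA. NTA 1 lay among the water animals, and the difference was 0.13 ± 0.07 (adjusted p = 0.512). Its second probe stood at 0.07 ± 0.10. Ccng1, which encodes cyclin G1, a p53 target of the same feedback loop, was at 1.93, 2.42 and 1.80 in water and 1.82, 1.97 and 2.00 in NTA, a difference of -0.12 ± 0.17. Its second probe read 2.74 in water 2 alone, and between -0.90 and -0.46 on the other 5 arrays. That array set the probe's difference of -1.09 ± 0.96, which was 0.07 without it.

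Gadd45a, which binds PCNA and p21 and takes part in stress signalling and growth arrest, read 3.44, 3.14 and 3.41 in water and 2.72, 3.08 and 3.07 in NTA. NTA 1 was lowest, and the groups did not overlap. The difference of -0.37 ± 0.14 (adjusted p = 0.371) was -0.36 on the shared slide and -0.37 on the other day. Sesn2, a leucine sensor that restrains mTORC1, read 0.38, 0.75 and 0.47 in water and 0.03, 0.41 and 0.40 in NTA. Its groups overlapped, and its difference of -0.25 ± 0.15 was 0.03 on the shared slide and -0.39 on the other day. Plk3, a stress-responsive polo-like kinase, read -0.68, -0.03 and -0.48 in water and -0.19, -0.24 and 0.89 in NTA. The difference of 0.55 ± 0.35 rested on NTA 3 and was 0.18 without it. Its second probe gave 0.53 ± 0.29, again with NTA 3 highest.

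Tp53inp1, a p53 cofactor linked to autophagy, read -1.32, -0.96 and -1.37 in water and -1.10, -1.24 and -0.73 in NTA (0.20 ± 0.17), with overlap. The remaining genes of this role lay close to 0: Zmat3, an RNA-binding p53 target, at 0.08 ± 0.08, Plk2, another polo-like kinase, at 0.06 ± 0.36, and Btg2, an antiproliferative gene, at -0.02 ± 0.08. Over the 9 tested genes of arrest and growth control, 5 were above 0 (56.4% of all genes were), the median was 0.06, and 0 passed.

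The apoptotic targets were led by Bbc3, which encodes the BH3-only protein PUMA. It read -0.17, -0.33 and -0.34 in water and 0.17, 0.07 and -0.16 in NTA, where NTA 3 lay only just above water 1. The difference was 0.31 ± 0.11 (adjusted p = 0.349), 0.23 on the shared slide and 0.34 on the other day. Bax, the pore-forming partner of that pathway at the mitochondrion, read 0.70, 0.69 and 0.76 in water and 0.79, 0.86 and 0.80 in NTA. Its groups were separate and its spread small (SD 0.04 in each), but the difference was only 0.10 ± 0.06, or 1.07-fold (adjusted p = 0.54).

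Fas, the death receptor, read -2.50, -2.69 and -2.97 in water and -2.57, -2.57 and -2.70 in NTA (0.11 ± 0.13). A dimmer Fas probe, well above background on 3 water arrays and 1 NTA array, stood at -0.40 ± 0.38. Perp, a desmosomal p53 target, read 4.97, 5.09 and 5.19 in water and 4.96, 5.03 and 5.19 in NTA (-0.02 ± 0.09), so the groups covered the same range. Its second probe stood at -0.17 ± 0.12, with overlap. Aen, an apoptosis-enhancing nuclease, read 2.61, 2.74 and 3.21 in water and 2.68, 2.82 and 3.20 in NTA. Animal 3 was highest in both groups, and the difference was 0.05 ± 0.20, with 0.11 and -0.05 from the other 2 probes. Phlda3, an inhibitor of AKT, stood at 0.02 ± 0.11, with -0.30 on the shared slide and 0.18 on the other day, and Ei24 at 0.01 ± 0.09. Of the 7 tested apoptotic targets 6 were above 0 (56.4% of all genes were), with a median of 0.05, and 0 passed. Fas, Aen, Phlda3 and Ei24, among those 6, lay within their standard error of 0.

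Of the p53 targets that serve repair, Rrm2b, a ribonucleotide reductase subunit that supplies nucleotides in resting cells, stood at 0.14 ± 0.08. Polk, a translesion polymerase, was at -0.01 ± 0.10 by its brightest probe and -0.39 ± 0.22 by the other tested one, both with overlap. Xpc, which recognizes lesions for nucleotide excision, read 0.55, 0.45 and 0.26 in water and 0.41, 0.43 and 0.53 in NTA. The groups overlapped fully, and its 2 probes gave 0.04 ± 0.09 and -0.11 ± 0.10.

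**Figure D3:**
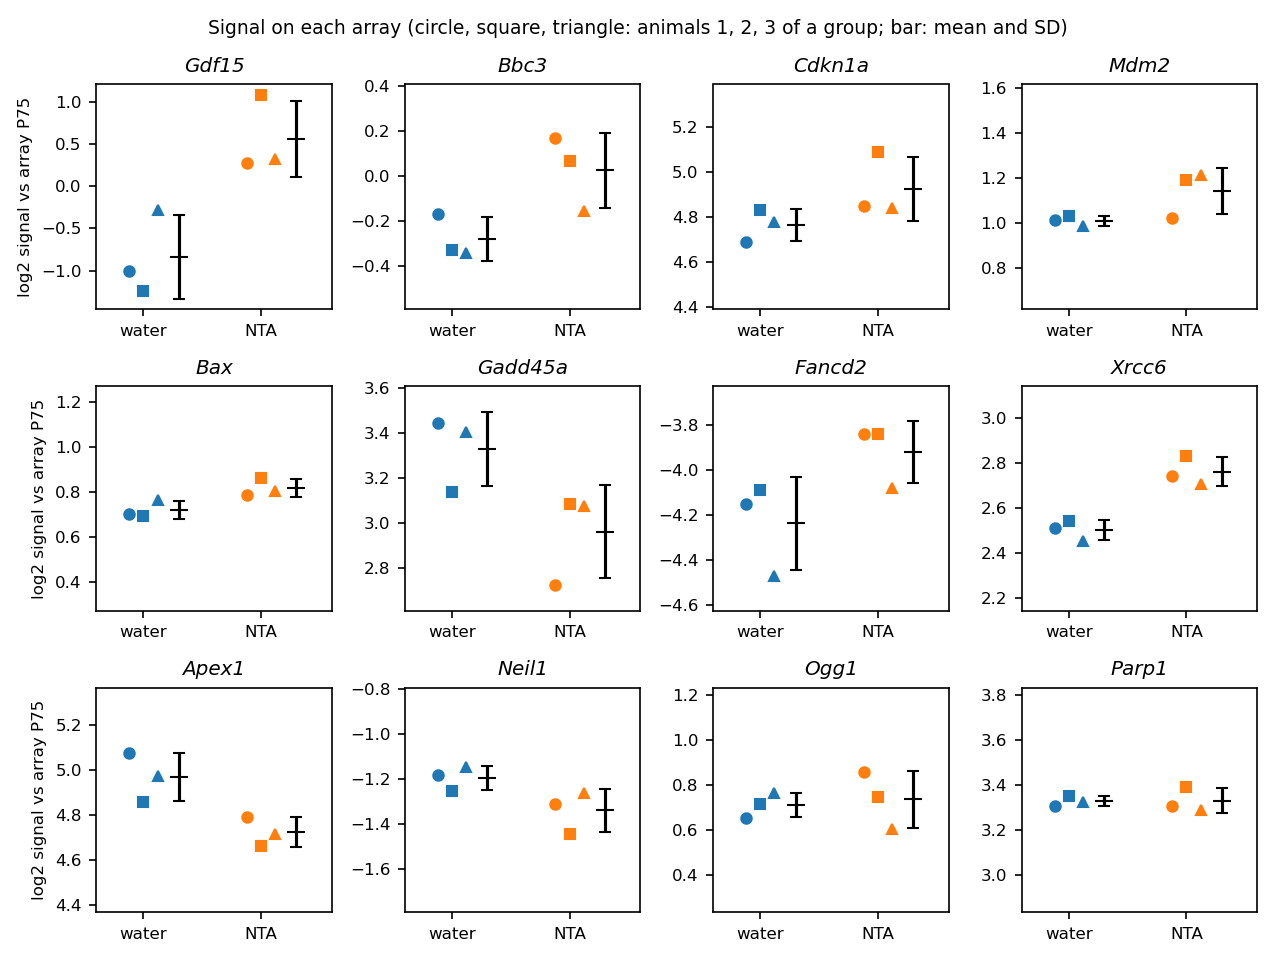
Log2 signal relative to the array's 75th percentile of 12 members on each array, water in blue and NTA in orange, with circle, square and triangle for animals 1, 2 and 3 of a group and a bar for mean and SD; panels have their own vertical range. The groups are apart by 1.40 in Gdf15 and by 0.37 or less in the other 11 genes, and Mdm2, Ogg1 and Parp1 overlap.

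Among the DNA repair genes the smallest p belonged to Xrcc6, which encodes Ku70, which with Ku80 forms the ring that binds broken ends for end joining. It read 2.51, 2.54 and 2.45 in water and 2.74, 2.83 and 2.71 in NTA. The groups lay apart by more than their spread (SD 0.05 and 0.06), and the difference was 0.26 ± 0.06, or 1.20-fold, with a 95% interval of 0.10 to 0.42 (adjusted p = 0.255, with 0.154 to 0.527 over the alternatives). It was 0.32 on the shared slide and 0.23 on the other day, and the second probe gave 0.31 ± 0.09. Xrcc5, which encodes the partner Ku80, stood at -0.01 ± 0.07 by its brightest probe and -0.19 ± 0.07 by the other. That other probe read 0.31, 0.29 and 0.33 in water and 0.01, 0.14 and 0.21 in NTA, without overlap (limma adjusted p = 0.383). The difference between the partners was not tested.

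Base excision repair showed Apex1 at the lower end. It encodes the main endonuclease for abasic sites, and read 5.07, 4.86 and 4.97 in water and 4.79, 4.66 and 4.72 in NTA. Every NTA animal was below every water animal, by 0.25 ± 0.08 on average, or 1.19-fold lower (adjusted p = 0.331). The difference was -0.41 on the shared slide and -0.16 on the other day, and the second probe gave -0.17 ± 0.10. Neil1, a glycosylase for oxidized pyrimidines, read -1.18, -1.25 and -1.15 in water and -1.31, -1.45 and -1.26 in NTA (-0.14 ± 0.07), again without overlap.

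Ogg1, the glycosylase that excises 8-oxoguanine, read 0.65, 0.72 and 0.76 in water and 0.86, 0.75 and 0.61 in NTA. The NTA animals covered the whole water range, and the difference was 0.02 ± 0.08, with a 95% interval of -0.18 to 0.23. Its second probe stood at 0.22 ± 0.08, so the 2 probes shared a sign but not a size. The second read -1.12, -1.07 and -0.98 in water and -0.72, -0.94 and -0.84 in NTA, without overlap (limma adjusted p = 0.378). Mutyh, which removes adenine opposite 8-oxoguanine, was at -0.01 ± 0.14. Ung, the uracil glycosylase, read 1.01, 0.84 and 0.85 in water and 0.86, 0.73 and 0.89 in NTA (-0.07 ± 0.08), with overlap. Parp1, a sensor of strand breaks, read 3.31, 3.35 and 3.32 in water and 3.31, 3.39 and 3.29 in NTA. The groups overlapped, the difference was 0.00 ± 0.06, and its second probe gave -0.02 ± 0.06. Xrcc1, the scaffold of single-strand break repair, stood at 0.09 ± 0.09. Of the 7 base excision genes tested 3 were above 0 (56.4% of all genes were), the median was -0.01 and 0 passed.

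Homologous recombination and crosslink repair gave dim and variable signals. Fancd2, the central substrate of the Fanconi pathway, read -4.15, -4.09 and -4.47 in water and -3.84, -3.84 and -4.08 in NTA. The groups did not overlap, with NTA 3 only just above water 2, and the difference of 0.32 ± 0.13 (adjusted p = 0.407) was 0.20 without water 3. Exo1, a resection nuclease, read -3.44, -3.37 and -3.39 in water and -3.40, -2.90 and -3.22 in NTA, where NTA 2 was highest (0.23 ± 0.13). It stood at 0.54 on the shared slide and 0.07 on the other day.

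Rad51c, a gene of homologous recombination, read -3.99, -3.65 and -3.78 in water and -3.59, -5.26 and -3.83 in NTA. NTA 2 stood apart from the other 5 arrays, though its spot was well above background, and the difference of -0.42 ± 0.44 was 0.10 without it. Brca2, a mediator of strand exchange, stood at 0.02 ± 0.19, and was likewise lowest in NTA 2, at -2.51 against -2.17 to -1.81 elsewhere. These genes are also used in S phase. Proliferation markers (17 of 20 tested) had a mean signal of -1.44 to -1.37 in water and -1.49, -1.11 and -1.28 in NTA 1, 2 and 3. Their part in the values of Exo1 and Fancd2 was not tested.

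Nucleotide excision and direct reversal lay near 0 by the brightest probes. Ercc2, a helicase subunit of TFIIH, was at 0.08 ± 0.06, its groups separate only beyond the second decimal. Ercc1, a subunit of the incision nuclease, stood at 0.07 ± 0.08. The second Ercc1 probe read 1.05, 1.15 and 1.12 in water and 1.27, 1.22 and 1.22 in NTA. Its groups did not overlap (0.13 ± 0.06, limma adjusted p = 0.457). Mgmt, the alkyltransferase, read 2.10, 2.25 and 2.11 in water and 2.11, 2.16 and 2.14 in NTA. Its NTA values lay inside the water range, and the difference was -0.02 ± 0.07 with a 95% interval of -0.18 to 0.14.

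The other 9 listed genes gave no difference. Brca1, Neil3 and Pmaip1 (NOXA) each had 1 probe, well above background on 0 of 6 arrays, so their signal was not measurable at this sensitivity in either group. Sesn1, Tnfrsf10b, Ddb2, Fanca, Blm and Msh6 were not matched to a probe by accession and were not analysed here.

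Probes of 1 gene were compared for the 20 members with more than 1 tested probe. They shared a sign for 15 (75%), against 66.4% of 6175 such genes among all tested, and their differences spanned a median of 0.14, against 0.10. The 5 with mixed signs were Aen, Cdkn1a, Fas, Parp1 and Xpc. The dimmest tested probes of Fas and Cdkn1a were kept through water alone, where they were higher. That of Brca2 was kept through NTA alone, where it was higher. The filter favoured those signs, so they cannot show agreement or disagreement between probes. Cdkn1a was also mixed through a probe kept in both groups. The widest span was that of Ccng1 (0.97), followed by Cdkn1a (0.57), Fas (0.51) and Polk (0.38), and each of these holds a probe with an error of at least 0.22. Gdf15, Xrcc6, Plk3, Exo1, Mdm2 and Apex1 had spans of 0.14 or less. Of the 59 member probes tested, 0 passed limma's adjusted threshold over all probes (0.145% of all probes were called), and 10 had an unadjusted p under 0.05 (12.1% of all probes).

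**Figure D4:**
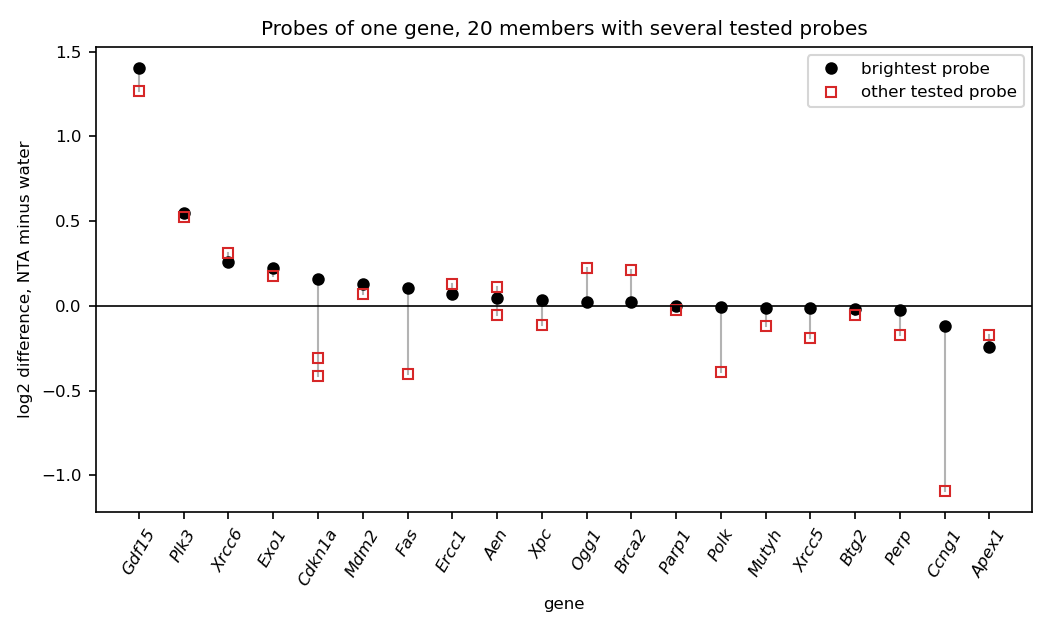
Log2 difference, NTA minus water, of each tested probe for the 20 members with several, with the brightest probe as a filled circle and others as open squares. Both probes of Gdf15, Plk3, Xrcc6 and Exo1 lie above 0, those of Apex1 below it, and Cdkn1a and Fas have probes on both sides.

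Across the arrays, NTA 1 was the highest of the 6 for 11 of 37 members and NTA 2 for 9, beside 21.0% and 22.5% of all genes. The mean signal of the 21 p53 targets was 0.26 to 0.30 in water and 0.35, 0.43 and 0.44 in NTA. Without Gdf15, an alternative chosen after seeing the data, the mean of the other 20 was 0.35, 0.38 and 0.29 in water and 0.35, 0.39 and 0.45 in NTA, and the groups overlapped. That of the 16 repair genes was 0.26 to 0.32 in water and 0.37, 0.22 and 0.29 in NTA, with overlap. The difference on the shared slide had the same sign as that on the other day for 19 of 37 members, against 58.4% of all genes. Gdf15, Xrcc6, Bbc3 and Fancd2 were above 0 in both, and Gadd45a, Apex1 and Neil1 below 0 in both. The groups of each of these genes did not overlap, so both differences had to share a sign. Their agreement therefore adds nothing to the lack of overlap.

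**Figure D5:**
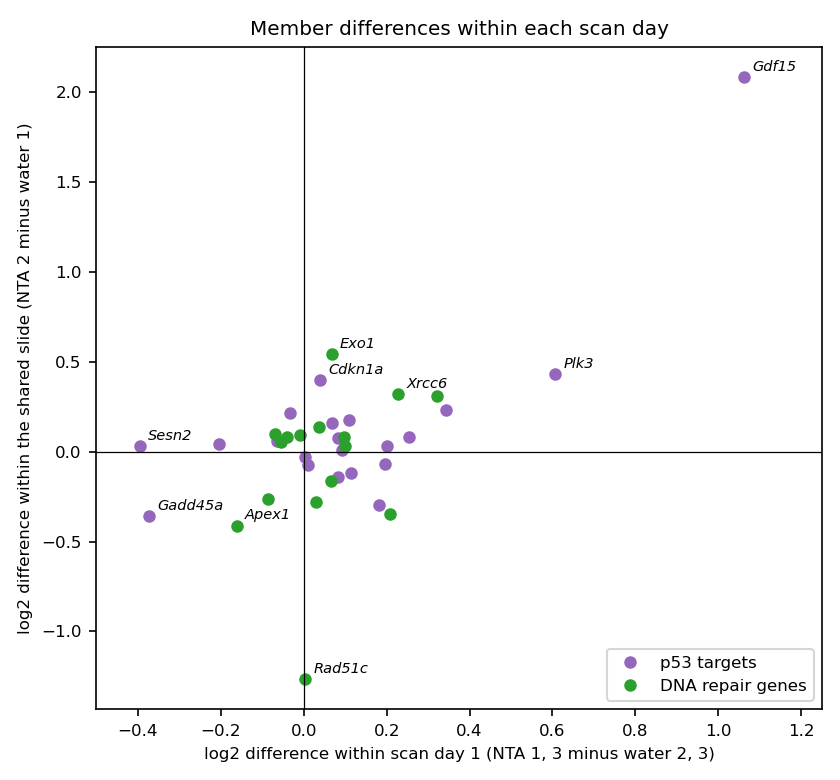
Log2 difference of each of the 37 members within scan day 1 (NTA 1 and 3 minus water 2 and 3, on different slides) against that on the shared slide (NTA 2 minus water 1). Gdf15 lies apart at 1.06 and 2.09, Rad51c at 0.00 and -1.27, and most other members within 0.5 of 0 on both axes.

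The rest of the pathway was read from lists that share no gene with the members. Of 33 tested other genes of the p53 circuit 0 passed, 7 were above 0 and 26 below, with a median of -0.08, where 56.4% of all genes were above 0. Their mean signal was -0.19 to -0.16 in water and -0.32 to -0.27 in NTA, lower without overlap. Thbs1, an inhibitor of angiogenesis, had the smallest p on the list: it read -4.14, -3.99 and -4.17 in water and -4.72, -4.94 and -5.29 in NTA, without overlap (-0.88 ± 0.15, adjusted p = 0.189). Apaf1, the apoptosome scaffold, stood at -0.36 ± 0.10, Tigar, a fructose bisphosphatase, at 0.16 ± 0.07, and Tp63 at 0.13 ± 0.06. The listed targets and this list therefore had medians of opposite sign, 0.06 and -0.08, a difference that was not tested.

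Of 14 damage signalling genes 0 passed (6 above 0, median -0.01). The kinase genes Atm and Chek1 stood at -0.08 ± 0.07 and 0.16 ± 0.12, Nbn, of the break-sensing complex, at -0.22 ± 0.10, and the histone variant H2ax at 0.12 ± 0.10. Of 51 other repair genes 0 passed (30 above 0, median 0.02). Alkbh2, an oxidative demethylase of alkylated DNA, read 3.21, 3.16 and 3.07 in water and 2.82, 2.96 and 2.89 in NTA, without overlap (-0.26 ± 0.07, adjusted p = 0.275). The glycosylase Tdg was at -0.17 ± 0.06, the nuclease Mus81 at 0.22 ± 0.06, Pms2 of mismatch repair at 0.23 ± 0.10, and the sliding clamp Pcna, a p53 target and replication factor, at 0.00 ± 0.08.

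Of 17 proliferation genes 0 passed (12 above 0, beside 56.4% of all genes, median 0.03). Ccne2, cyclin E2 of the G1 to S transition, read -4.83, -4.54 and -4.53 in water and -4.17, -4.13 and -4.07 in NTA. Its groups did not overlap, and the difference was 0.51 ± 0.10 (adjusted p = 0.211). Tk1, the S-phase thymidine kinase, stood at 0.37 ± 0.11, while Tyms and Aurkb were at -0.09 ± 0.09 and -0.15 ± 0.33. In all 4 lists together 9 genes had an unadjusted p under 0.05 by limma, 3 higher and 6 lower in NTA, out of 115 tested, where 12.3% of all genes did (7.76% higher and 4.51% lower).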

How the data were processed

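Per the file headers, the scanner images of 6 one-colour Agilent arrays, 1 per animal, were read by Agilent's Feature Extraction software, version 10.7.1.1. The submitters' processing notes name version 10.7. The values used are the processed spot intensity that the authors deposited, background-corrected and not normalized between arrays. The authors also deposited a table in which each value is a ratio of that signal to 1 constant per array, used as an alternative. Each array held 61657 probes that are not controls.

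Here log2 intensity was taken relative to the array's 75th percentile, and spots with outlier marks were left out. Probes were named by transcript accession, without version, using RefSeq's rat genes (assembly GRCr8): 27460 received a symbol, for 15284 genes. Kept probes exceeded background clearly (the scanner software's mark) on every array of 1 group or both, and the kept probe of highest mean stood for its gene. NTA was compared with water by limma 3.58.1 in R 4.3.3 (lmFit and eBayes, no trend, two-sided, Benjamini-Hochberg over all 11965 genes, threshold 0.05), and by the same fit over 20738 kept probes. The fit was run on simulated data with independent noise and no slide or scan day effect, as a check of the code only. The alternatives were quantile and normexp scaling, the deposited ratios, stricter and absent filters, the mean of a gene's probes, eBayes with trend and robust, slide, scan day or replicate number as a block, and leaving out each array. Normexp used spot and background medians in place of the planned means. Members, roles and pathway lists were chosen with earlier results of these data known. Values are given for the 8 members of largest difference each way, the 6 of smallest p, 8 members picked by function, members whose probes differ in sign, and, of each pathway list, the 2 genes of smallest p each way with Atm and Pcna; 1 further gene of that rule is not reported here.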

Additional observations from a re-analysis of the deposited data

How the results depend on the processing

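In all 17 alternatives 0 members, 0 member probes and 0 genes of the 4 pathway lists passed limma's adjusted threshold. The number of all genes called, 9, was 0 under quantile normalization, without a filter on dim probes, with scan day as a fixed block and with the replicate block, 5 with slide as a fixed block, 20 under normexp, 38 by eBayes with trend and robust, and 0 to 5 when 1 array was left out. The labels number the animals 1 to 3 in each group, but same-numbered animals deviated from their group means with correlations of 0.07, -0.09 and 0.04, so the replicate number was not taken as a pairing. The share of higher values among genes with an unadjusted p under 0.05 was 63.2%, and 52.2% under quantile normalization. The median of the p53 targets, 0.06, was 0.022 with the mean of a gene's probes and 0.03 to 0.10 when 1 array was left out. That of the repair genes, 0.01, ranged from -0.01 to 0.07. The sign turned for 4 members with the mean of a gene's probes, 10 with slide as a fixed block, 7 under normexp, 1 each under quantile normalization and slide as a random block, and 6 to 7 when 1 array was left out. Those with a value above its standard error on either side were Cdkn1a with the mean of its probes (-0.19) and, with slide as a fixed block, Sesn2 (0.029), Phlda3 (-0.30), Ei24 (-0.14) and Brca2 (-0.34). That block rests on 1 animal per group. For the probe means, Cdkn1a and Fas each take in a probe kept through water alone, where it was higher. The filter thus favoured lower values in NTA for these means, which enter the p53 median of 0.022. With 3 animals a group, the median half-width of a member's unadjusted 95% interval was 0.22 on the log2 scale.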
